A study of Mus musculus with 6 samples.

Results

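The genes described here encode the enzymes that place methyl groups on histone lysines and arginines (writers) and those that remove them (erasers). They were measured in LSK cells, the lineage-negative, Sca-1-positive, Kit-positive fraction of bone marrow that holds hematopoietic stem cells and multipotent progenitors. Members were all rows of the deposited table whose symbol begins with one of the family names Kmt2, Kmt5, Kdm, Setd, Ehmt, Suv39h, Ezh, Nsd or Prmt and goes on with the number or letter of a family member. This gave 50 of the 16403 genes in the table, 32 writers and 18 erasers. Read letter by letter, the pattern behind the choice asks for a digit after each name. That leaves 42 genes and drops the 8 Kmt2 and Kmt5 genes, whose digit is followed by a letter. They were kept because the pattern names both families. The pattern reads symbols and no measured values, but the members were chosen with earlier results of these data known.

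Messenger RNA was sequenced in bulk from 3 libraries of C57BL/6 mice with ligature-induced periodontitis (LIP) and 3 libraries of unligated C57BL/6 mice (NL). In this model a thread tied around a molar gathers bacteria and causes gum inflammation and bone loss around that tooth. All marrow was taken on day 7, and each library pooled sorted cells of 3 mice, so the spread between libraries is a spread between pools. The series title names the effect of trained immunity induced by periodontitis on LSK transcription as the question. The labels give no age or sex.

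Methylation of histone tails marks the state of chromatin. Methyl groups on H3K4 lie at active promoters and enhancers, those on H3K36 along transcribed genes, and those on H3K9, H3K27 and H4K20 mostly at silent or compacted chromatin. SET-domain proteins write lysine marks, the PRMT family writes arginine marks, and erasure is done by the flavin-dependent KDM1 enzymes and the JmjC-domain KDM enzymes. In blood stem cells, KMT2A (MLL1) maintains Hox gene expression and self-renewal, EZH2 is the main catalytic subunit of Polycomb repressive complex 2, and KDM1A (LSD1) works with the repressors GFI1 and GFI1B. H3K4 methylation has been much studied as a mark of trained immunity in monocytes and macrophages.

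Library totals lay between 17780853 and 18841103 estimated counts. Levels are given as CPM, counts scaled to a common library size with TMM factors. On this scale 3 counts, used as a floor, equal 0.157 to 0.171 CPM, and the floor covers counting error only. Of the 10 LSK marker genes checked, all were expressed, 3 were called higher in LIP and none lower. Their summed level was 2763 to 2797 CPM in LIP and 2672 to 2692 CPM in NL. Markers of more mature cells differed between the groups. All 9 tested neutrophil markers were called higher, with a summed level of 328 to 349 CPM in LIP and 232 to 248 CPM in NL. Of 6 monocyte markers 5 were called higher (674 to 704 CPM in LIP, 499.9 to 513 CPM in NL), and of 9 B-lineage markers 6 (103 to 107 CPM in LIP, 84.5 to 86.7 CPM in NL). Of 7 erythroid markers 1 was called higher and 3 lower, of 5 mast cell and basophil markers 1 and 3, of 5 megakaryocyte markers 1 and 0, and of 4 T and NK cell markers 2 and 0. The neutrophil marker Ly6g had 3 counts or fewer in every library. Of 18 tested heat shock and handling genes 14 were called lower in LIP, with summed levels of 10526 to 11100.0 CPM in LIP and 12862 to 13212 CPM in NL. Hspa8 and Hsp90ab1 made up most of that sum, and the inducible Hsp70 genes differed far more. Hspa1a fell by 5.24 ± 0.12 on the log2 scale (SE), with an edgeR adjusted p of 4.78e-43. Hspa1b stood at 3.21, 2.04 and 2.51 CPM in LIP and at 82.6, 81.8 and 80.8 CPM in NL and fell by 4.99 ± 0.08 (SE). The list counts of this paragraph stand beside 14.1% of all tested genes called higher and 15.8% lower, 29.9% in all. Of 15 genes of G2 and mitosis 1 was called higher and 1 lower (13.3% in all), and of 19 genes of G1 and S phase 3 and 5 (42.1% in all). The part of any of these in the results below was not tested. In bulk samples, fewer cells of a type and less RNA per cell cannot be told apart.

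Of the 50 members, 49 passed the filter on low counts and were tested. Kdm4d, a demethylase gene with 3 counts or fewer in every library, did not. Of the tested members 11 were called higher in LIP and 5 lower (edgeR's quasi-likelihood test, Benjamini-Hochberg adjusted p below 0.05 over all tested genes). That is 32.7% of members, where 29.9% of all 12564 tested genes were called, so the share of members called was close to the background. In the higher direction it was 22.4% of members and 14.1% of all tested genes, and in the lower direction 10.2% and 15.8%. The changes were small: 13 of the 16 called members changed by less than 0.2 on the log2 scale, and only Setd1a and Prmt2 changed by 0.3 or more. The median log2 fold change was 0.01 over the members and -0.00 over all tested genes. Of the 32 writers 6 were called higher and 4 lower, with a median of 0.00. Of the 17 tested erasers 5 were called higher and 1 lower, with a median of 0.06. Without the Kmt2 and Kmt5 genes, 9 members were higher and 4 lower, and the median was 0.04. These counts depended on single libraries: without NL replicate 2, 2 writers were lower and 2 erasers higher, without LIP replicate 2, 3 erasers were higher, and without NL replicate 1 or NL replicate 2, 3 members were lower. The 1 eraser called lower, Kdm3a, was not called without LIP replicate 3, NL replicate 1 or NL replicate 2. Without NL replicate 2 a different eraser, Kdm1b, was called lower.

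**Figure D1:**
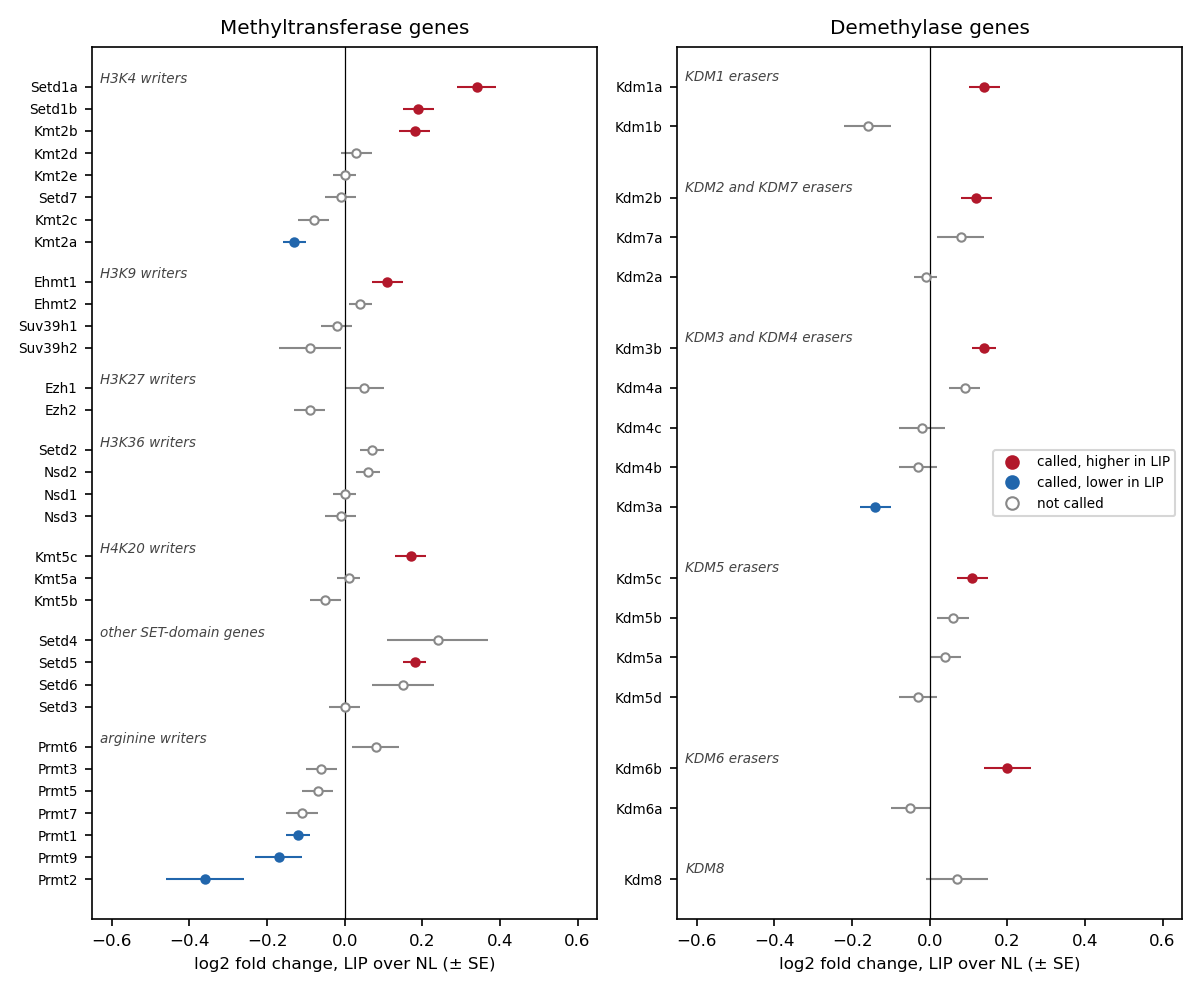
Log2 fold change, LIP over NL, with its SE for each of the 49 tested members, writers on the left and erasers on the right, grouped by the residue they act on or by family. Setd1a stood highest at 0.34 and Prmt2 lowest at -0.36, and most other genes lay within 0.2 of 0.

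The promoter sequences of the gene that rose most, of the H3K4 writer that fell and of the gene that fell most are shown to give the sequence context of these 3 genes. Each is the 250 bases before a RefSeq transcription start on GRCm38.p6, 5′ to 3′ on the strand of the gene, with CG dinucleotides in capitals. The Setd1a window lies at chr7:127777139-127777388 on the plus strand, the Kmt2a window at chr9:44881290-44881539 on the minus strand and the Prmt2 window at chr10:76237866-76238115 on the minus strand. The Kmt2a gene extends to position 44881352, so part of the Kmt2a window lies inside the gene.
Setd1a: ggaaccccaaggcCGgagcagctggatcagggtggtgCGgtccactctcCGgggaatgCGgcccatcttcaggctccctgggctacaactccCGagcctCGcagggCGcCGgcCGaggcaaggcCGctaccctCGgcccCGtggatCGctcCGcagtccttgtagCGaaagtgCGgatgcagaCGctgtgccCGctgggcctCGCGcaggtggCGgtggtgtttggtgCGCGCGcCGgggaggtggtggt
Kmt2a: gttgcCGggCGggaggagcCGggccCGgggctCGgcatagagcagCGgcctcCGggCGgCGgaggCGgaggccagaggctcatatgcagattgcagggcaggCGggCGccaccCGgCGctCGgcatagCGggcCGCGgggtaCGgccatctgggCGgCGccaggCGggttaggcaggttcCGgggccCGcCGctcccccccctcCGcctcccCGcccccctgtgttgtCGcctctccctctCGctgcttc
Prmt2: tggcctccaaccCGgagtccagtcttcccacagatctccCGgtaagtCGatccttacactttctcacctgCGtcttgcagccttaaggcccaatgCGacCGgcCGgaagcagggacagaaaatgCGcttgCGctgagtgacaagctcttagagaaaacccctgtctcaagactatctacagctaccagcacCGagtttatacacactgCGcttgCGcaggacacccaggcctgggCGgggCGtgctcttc
These windows hold 25 CG dinucleotides in Setd1a, 29 in Kmt2a and 14 in Prmt2. The median was 16 over the 39 members with a window in the table, and also 16 over the 10088 tested genes with one. The letters CGGAAG, the core of ETS sites, occurred on either strand in 28.2% of member windows, 25.7% of windows of tested genes and 13.8% of all windows of this length. TATAAA, the TATA box letters, occurred on either strand in 5.1% of member windows and 6.2% of windows of tested genes, and in 3504 of all 27025 windows. Of the windows shown, that of Prmt2 held 1 match to each, and the others held none. Both motifs were chosen after the sequences were seen.

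The enzymes that write H3K4 methylation went in both directions. SETD1A and SETD1B are the catalytic subunits of the SET1 COMPASS complexes, which place most H3K4 trimethylation at promoters, and KMT2A to KMT2D are those of the MLL complexes. Setd1a (chromosome 7, 127777389 to 127800122) stood at 90.2, 98.2 and 102 CPM in LIP and at 82.8, 75.3 and 71.4 CPM in NL. Every LIP library lay above every NL library, and the gap between the nearest libraries was 7.4 CPM. Setd1a rose by 0.34 ± 0.05 on the log2 scale (SE), to 1.27-fold of NL, with an edgeR adjusted p of 2.89e-06. Its call held in 20 of 20 alternative fits.

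Setd1b (chromosome 5, 123142040 to 123168630) stood at 69.2, 73.1 and 72.4 CPM in LIP and at 62.7, 65.3 and 59.7 CPM in NL, again without overlap. It rose by 0.19 ± 0.04 (SE), with an edgeR adjusted p of 4.51e-04. Kmt2b (chromosome 7, 30568855 to 30589056), the MLL-family gene nearest to Kmt2a, stood at 83.4, 89.9 and 95.7 CPM in LIP and at 81.9, 80.2 and 74.8 CPM in NL. The lowest LIP library was only just above the highest NL library. Kmt2b rose by 0.18 ± 0.04 (SE), with an edgeR adjusted p of 0.00103. In the fit with an offset for length and GC content, described below, Setd1b stood at 0.08 and Kmt2b at 0.07, and neither was called.

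Kmt2a (chromosome 9, 44803355 to 44881352) went the other way. It stood at 199.8, 196 and 195 CPM in LIP and at 217, 216 and 213 CPM in NL, so the groups did not overlap and each was tight. It fell by 0.13 ± 0.03 on the log2 scale (SE), with an edgeR adjusted p of 0.00160. That fall is relative to the other genes of the library: on the authors' TPM values (scaled by transcript length and to a fixed library total), where the median of all tested genes was 0.12 higher in LIP, Kmt2a averaged 21.8 ± 0.360 TPM in LIP and 21.9 ± 0.241 TPM in NL (SD, n = 3 each). Relative to that median it stood 0.12 lower. Among the other H3K4 genes, Kmt2c stood at -0.08, Kmt2d at 0.03, Kmt2e, whose product has no established methyltransferase activity, at -0.00 and the monomethyltransferase gene Setd7 at -0.01, none of them called. Of the exon bases of Kmt2e 9.3% overlap Srpk2 on the other strand, and its counts were not whole in all libraries. In all, 3 of the 8 H3K4 genes rose and 1 fell, beside 14.1% of all tested genes higher and 15.8% lower, with a median of 0.01. With the length offset 3 were higher and 2 lower, and adding the GC offset left 1 higher and 3 lower, both with a median of -0.05. Of all tested genes 13.1% were higher and 13.7% lower with the length offset, and 12.1% and 12.4% with both. On TPM 4 were higher and 0 lower, with a median of 0.14, beside 37.0% of all tested genes higher and 4.35% lower and their median of 0.12.

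**Figure D2:**
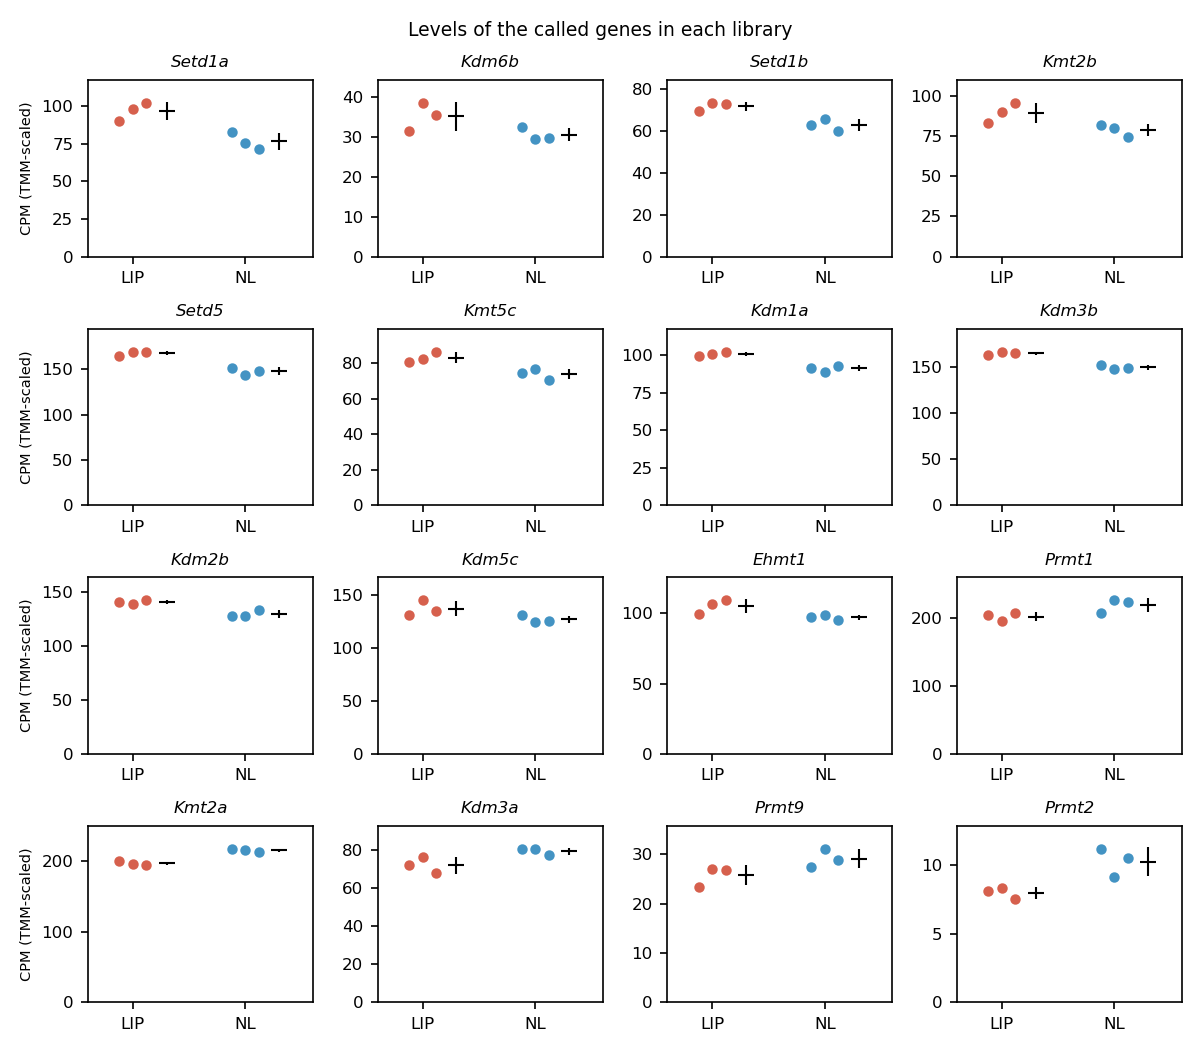
CPM of the 16 called members in each library, LIP left of NL in each panel, with the mean and SD of the 3 libraries beside the points. All axes start at 0. In every panel but that of Kdm6b the groups do not overlap.

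H3K9 writers changed little. EHMT1 (GLP) and EHMT2 (G9a) form the heterodimer that places most H3K9 mono- and dimethylation in gene-rich chromatin. Ehmt1 stood at 99.8, 107 and 109 CPM in LIP and at 97.8, 99.0 and 95.4 CPM in NL, and it rose by 0.11 ± 0.04 (SE), with an edgeR adjusted p of 0.0215. The nearest libraries were 0.7 CPM apart, and the call was lost in 8 of 20 alternative fits, among them without LIP replicate 2 or 3 and without NL replicate 1 or 3. Its partner Ehmt2 stood at 250.5, 260.1 and 259 CPM in LIP and at 249.7, 249.7 and 250.1 CPM in NL. The groups did not overlap, but the log2 fold change was only 0.04 ± 0.03 (SE) and was not called, with an edgeR adjusted p of 0.397. Of the SUV39H enzymes, which trimethylate H3K9 in pericentric heterochromatin, Suv39h1 stood at -0.02 on the log2 scale. Suv39h2 stood at 15.8, 15.1 and 14.1 CPM in LIP and at 17.1, 16.7 and 14.1 CPM in NL, with overlap and no call, and 8.1% of its exon bases overlap Dclre1c on the other strand.

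The Polycomb methyltransferases were not called. Ezh2 stood at 148, 143 and 145 CPM in LIP and at 159.8, 153 and 149 CPM in NL. The groups did not overlap, but the nearest libraries were 1.5 CPM apart, and the log2 fold change of -0.09 ± 0.04 (SE) had an edgeR adjusted p of 0.0601. With the length offset it was -0.09 with an edgeR adjusted p of 0.0418, and with the length and GC offset -0.05 with an edgeR adjusted p of 0.246. Ezh1, its less active paralog, stood at 53.9, 55.4 and 53.8 CPM in LIP and at 55.6, 50.7 and 51.5 CPM in NL, with overlap and a log2 fold change of 0.05. Per length, Ezh2 was the more abundant of the pair, at 103 ± 0.373 TPM against 23.6 ± 0.808 TPM for Ezh1 in LIP and 100.2 ± 3.79 against 20.9 ± 1.12 TPM in NL (SD, n = 3 each).

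With TMM scaling and no offset, none of the 4 H3K36 writers was called, where 29.9% of all tested genes were. SETD2 places H3K36 trimethylation, and the NSD proteins place dimethylation. Setd2 stood at 185.5, 193 and 186 CPM in LIP and at 179, 184 and 176 CPM in NL, a log2 fold change of 0.07 ± 0.03 (SE) with an edgeR adjusted p of 0.136. Nsd2 stood at 225, 239 and 220.5 CPM in LIP and at 221, 219 and 218 CPM in NL, with overlap. Nsd3 stood at 132, 135 and 125 CPM in LIP and at 134, 131 and 130.5 CPM in NL, also with overlap. The log2 fold changes of Nsd2, Nsd3 and Nsd1 were 0.06, -0.01 and 0.00, each with an SE of at most 0.04. With total counts alone 2 of the 4 were higher, as were 2756 of all 12564 tested genes. With the length and GC offset 1 was higher, Nsd2, at 0.08 with an edgeR adjusted p of 0.0259, beside 12.1% of all tested genes. On TPM 3 were higher, beside 37.0% of all tested genes.

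Among the H4K20 writers Kmt5c rose. KMT5A places the first methyl group on H4K20, and KMT5B and KMT5C add the next ones. Kmt5c (chromosome 7, 4740092 to 4747514) stood at 80.7, 82.3 and 86.6 CPM in LIP and at 74.6, 76.7 and 70.7 CPM in NL, without overlap. It rose by 0.17 ± 0.04 (SE), with an edgeR adjusted p of 0.00128, and its call held in 20 of 20 alternative fits. Kmt5b stood at 72.6, 70.6 and 71.6 CPM in LIP and at 76.2, 75.0 and 71.4 CPM in NL, with overlap and a log2 fold change of -0.05. Kmt5a stood at 0.01.

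Of the remaining SET-domain genes Setd5 rose. SETD5 is a chromatin protein whose own methyltransferase activity is disputed, SETD3 is a histidine methyltransferase of actin, and SETD6 methylates the NF-kB subunit RelA. Setd5 (chromosome 6, 113077262 to 113153432) stood at 165, 168.5 and 169 CPM in LIP and at 152, 143 and 148 CPM in NL. The LIP libraries were close together and all above NL. Setd5 rose by 0.18 ± 0.03 (SE), with an edgeR adjusted p of 3.60e-05, and its call held in 20 of 20 alternative fits. Setd4, at 7.24, 6.64 and 7.37 CPM in LIP and 4.44, 6.75 and 6.77 CPM in NL, had the second largest positive value, 0.24 ± 0.13 (SE), but its groups overlapped and it was not called. Setd6 stood at 14.3, 16.1 and 15.2 CPM in LIP and at 13.8, 13.8 and 13.5 CPM in NL. It did not overlap and was not called, with a log2 fold change of 0.15 ± 0.08 (SE). Setd3 stood at 0.00.

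Among the 7 arginine methyltransferase genes of the pattern, none was called higher and 3 were called lower, beside 14.1% of all tested genes higher and 15.8% lower. Carm1 (PRMT4), an arginine methyltransferase gene outside the pattern, was called higher, at 0.13. Of the 7 members, 1 was lower with total counts alone, 2 with the length offset and 4 with both offsets. Of all 12564 tested genes, 1301 were lower with total counts alone, 13.7% with the length offset and 12.4% with both offsets. PRMT1 makes most of the asymmetric dimethylarginine of the cell, PRMT5 most of the symmetric form, and PRMT2 is a weakly active relative that also binds nuclear receptors. Prmt2 (chromosome 10, 76207226 to 76237865) stood at 8.13, 8.37 and 7.52 CPM in LIP and at 11.2, 9.14 and 10.5 CPM in NL. It was the member with the largest fall, at low abundance, and the groups did not overlap. Prmt2 fell by 0.36 ± 0.10 on the log2 scale (SE), with an edgeR adjusted p of 0.00430. The call was lost without NL replicate 1 and on TPM.

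Prmt1 stood at 205, 195 and 208 CPM in LIP and at 208, 227 and 224 CPM in NL, with only 0.6 CPM between the nearest libraries. It fell by 0.12 ± 0.03 (SE), with an edgeR adjusted p of 0.00719, but the call was lost in 7 of 20 alternative fits, among them the length offset, where it stood at -0.05, total count scaling, and the fits without LIP replicate 2, NL replicate 2 or NL replicate 3. Prmt9, which methylates a splicing factor, stood at 23.4, 27.1 and 26.8 CPM in LIP and at 27.4, 31.1 and 28.9 CPM in NL, and fell by 0.17 ± 0.06 (SE), with an edgeR adjusted p of 0.0281 and a call that was also lost in 7 of 20, among them without LIP replicate 1, NL replicate 2 or NL replicate 3. Prmt7 stood at -0.11 with an edgeR adjusted p of 0.0577, Prmt5 at -0.07, Prmt3 at -0.06 and Prmt6 at 0.08. The family median of -0.11 was -0.06 with total counts alone and turned to 0.02 on TPM, where none of the 7 was called lower. On TPM 4.35% of all tested genes were called lower. Measured against the shift of all genes on TPM, Prmt2 stood at -0.33, Prmt9 at -0.14 and Prmt1 at -0.10.

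The KDM1 erasers split. They remove mono- and dimethyl groups from H3K4, KDM1A within the CoREST complex. Kdm1a (chromosome 4, 136550533 to 136602787) stood at 99.6, 100.6 and 102 CPM in LIP and at 91.8, 89.1 and 93.0 CPM in NL, with every LIP library above NL. It rose by 0.14 ± 0.04 (SE), with an edgeR adjusted p of 0.00280, and its call held in all 19 alternative fits that could test it. Kdm1b stood at 26.4, 27.5 and 26.9 CPM in LIP and at 33.4, 27.5 and 29.1 CPM in NL, where the nearest libraries were almost equal. It came nearest to a call of the genes that missed it, with a log2 fold change of -0.16 ± 0.06 (SE) and an edgeR adjusted p of 0.0502. Of 19 alternative fits 5 called Kdm1b lower, among them the length offset, at -0.19 with an edgeR adjusted p of 0.0178. With the length and GC offset it stood at -0.15 and was not called. The counts of both genes were not whole in all libraries. Of the exon bases of Kdm1b 9.2% overlap Dek on the other strand, and whether the 2 genes share reads was not tested.

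Of the KDM2 and KDM7 genes Kdm2b rose. KDM2B erases H3K36 methylation and also brings a variant Polycomb repressive complex 1 to CpG islands. Kdm2b stood at 140.4, 139 and 142 CPM in LIP and at 127.5, 128 and 133.5 CPM in NL, without overlap. It rose by 0.12 ± 0.04 (SE), with an edgeR adjusted p of 0.00988, and lost the call without NL replicate 2 and with the length and GC offset. Of its exon bases 5.8% overlap Rnf34 on the other strand. Kdm7a stood at 35.2, 36.7 and 32.6 CPM in LIP and at 34.5, 31.0 and 33.2 CPM in NL, with overlap. Kdm2a stood at -0.01 on the log2 scale.

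In the KDM3 pair, which erase H3K9 mono- and dimethylation, one gene rose and the other fell. Kdm3b stood at 163.5, 167 and 165.5 CPM in LIP and at 152.5, 148 and 149 CPM in NL, and rose by 0.14 ± 0.03 (SE), with an edgeR adjusted p of 9.43e-04. Kdm3a, which hypoxia is known to induce, stood at 71.9, 76.6 and 67.7 CPM in LIP and at 80.4, 80.6 and 77.2 CPM in NL. Neither gene overlapped between the groups. Kdm3a fell by 0.14 ± 0.04 (SE), with an edgeR adjusted p of 0.0105, and lost that call in 6 of 20 alternative fits, among them TPM, where it stood at -0.02, and the fits without LIP replicate 3, NL replicate 1 or NL replicate 2. Kdm3b lost its call with the length and GC offset, at 0.05. The KDM4 enzymes act on trimethylated H3K9 and H3K36. Kdm4a stood at 98.9, 99.8 and 96.4 CPM in LIP and at 89.0, 93.9 and 93.7 CPM in NL, without overlap and without a call, with an edgeR adjusted p of 0.0625. Kdm4b stood at -0.03 and Kdm4c at -0.02. Kdm4d had 3, 0 and 3 counts in LIP and 3, 1 and 1 counts in NL, too few for any difference to be seen.

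KDM5 enzymes remove H3K4 trimethylation, the mark that the SET1 and MLL enzymes write. Kdm5c stood at 131, 145 and 135 CPM in LIP and at 131, 124.5 and 125 CPM in NL, with 0.4 CPM between the nearest libraries. It rose by 0.11 ± 0.04 (SE), with an edgeR adjusted p of 0.0174 and a call that was lost in 7 of 20 alternative fits, among them without LIP replicate 2, NL replicate 2 or NL replicate 3. Kdm5b stood at 83.4, 89.9 and 88.7 CPM in LIP and at 83.1, 81.0 and 87.3 CPM in NL. Kdm5a stood at 98.3, 104 and 101 CPM in LIP and at 101, 98.0 and 97.2 CPM in NL. Both overlapped and were not called. Kdm5d, the Y-linked copy of Kdm5c, was expressed in all 6 libraries, at 40.0 to 43.5 CPM in LIP and 40.6 to 45.1 CPM in NL, so every pool held RNA of male cells.

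Of the KDM6 erasers of H3K27 methylation, Kdm6b (JMJD3), which inflammatory signals induce in macrophages, was called higher. Kdm6b (chromosome 11, 69398508 to 69420367) stood at 31.4, 38.4 and 35.3 CPM in LIP and at 32.3, 29.5 and 29.7 CPM in NL. LIP replicate 1 lay below NL replicate 1, so the groups overlapped, the sole such case among the 16 called members. Kdm6b rose by 0.20 ± 0.06 (SE), with an edgeR adjusted p of 0.00937. The call was lost in 6 of 20 alternative fits, among them without LIP replicate 2 and without NL replicate 2. Kdm6a (UTX) stood at 55.5, 54.0 and 54.5 CPM in LIP and at 59.1, 55.8 and 54.9 CPM in NL, with a log2 fold change of -0.05 and no call. Kdm8 stood at 16.1, 15.4 and 15.7 CPM in LIP and at 14.7, 14.1 and 16.2 CPM in NL, also with overlap and no call.

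In all, 22 of the 49 tested members did not overlap between the groups, 15 with LIP above and 7 with LIP below NL. Among all tested genes 40.9% did not overlap.

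Per length, levels spanned a wide range. Prmt1 was the most abundant member, at 294 ± 5.40 TPM in LIP and 292 ± 11.1 TPM in NL (SD, n = 3 each). It was followed in LIP by Ehmt2 at 121 ± 4.57, Kmt5a at 108.5 ± 2.39, Prmt5 at 107 ± 5.20 and Ezh2 at 103 ± 0.373 TPM. In NL these 4 stood at 108 ± 0.723, 99.0 ± 1.64, 102 ± 2.62 and 100.2 ± 3.79 TPM. In LIP, Kmt5a and Prmt5, and likewise Prmt5 and Ezh2, differed by less than the larger of their SDs. The most abundant erasers were Kdm2b, at 65.5 ± 0.941 TPM in LIP and 56.0 ± 1.22 TPM in NL, Kdm1a, at 62.5 ± 1.46 and 51.7 ± 1.48 TPM, and Kdm2a, at 57.2 ± 2.64 and 52.3 ± 1.69 TPM. At the low end Setd4 stood at 5.08 ± 0.335 TPM in LIP and 3.87 ± 1.17 TPM in NL. The summed level of the 32 writers was 1632 ± 33.8 TPM in LIP and 1506 ± 6.49 TPM in NL, and that of the 18 erasers 472 ± 17.4 TPM in LIP and 417 ± 5.15 TPM in NL. On TPM 25 members were called higher and 0 lower (limma on log2(TPM + 0.5)), but so were 37.0% of all tested genes higher and 4.35% lower, 41.3% in all. The median log2 ratio on TPM was 0.14 over the members, 0.02 above that of all tested genes.

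**Figure D3:**
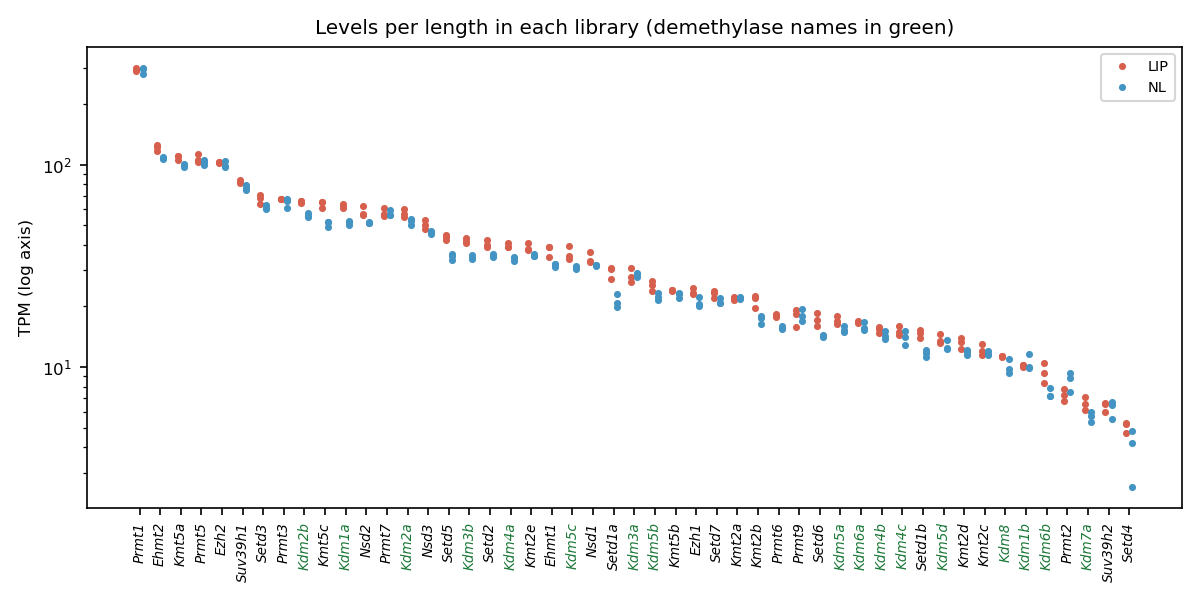
TPM of each member but Kdm4d in each library on a log axis, LIP left of NL for each gene, ordered by the LIP mean. Prmt1 stood highest, at 294 TPM in LIP and 292 TPM in NL, and Setd4 lowest.

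Many of these genes are long, and fold changes in these libraries moved with transcript length. Effective length, taken as the deposited counts over the authors' FPKM, had a median of 4728 bases over the tested members and 2754 bases over all tested genes. The longest member was Kmt2d at 19782 bases and the shortest Prmt1 at 1231 bases. When all tested genes were split into 5 equal groups by effective length, the median log2 fold change was -0.10 in the shortest group (122 to 1538 bases), and 5.57% of that group was called higher and 32.4% lower. In the longest group (4552 to 23561 bases) the median was 0.05, and 22.6% was called higher and 7.60% lower. That longest group held 27 of the 49 tested members, with a median of 0.03, of which 8 were called higher and 2 lower. Fold changes also moved with GC content. The median over all tested genes was -0.07 in the group of lowest GC content and 0.04 in that of highest, and the members in these groups had medians of -0.02 and 0.17. Across genes, Spearman's rho between fold change and effective length was 0.18 over 49 members and 0.27 over all tested genes. With GC content it was 0.44 over 49 members and 0.24 over the 12374 tested genes with a value. Genes measured in the same 6 libraries are not independent replicates, so these are descriptions only.

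**Figure D4:**
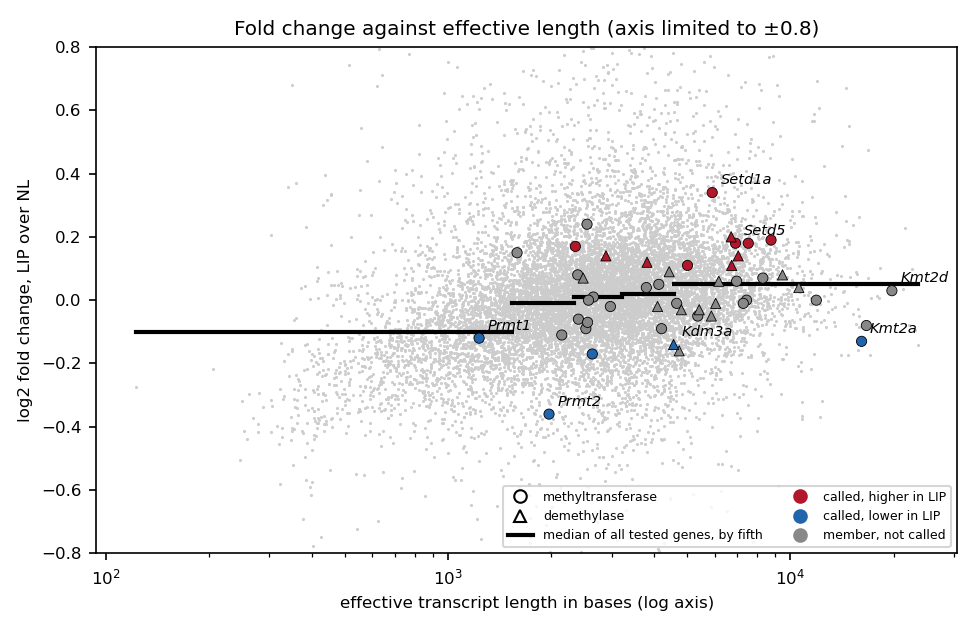
Log2 fold change, LIP over NL, against effective transcript length on a log axis, with all tested genes in grey, members as large symbols and the median of each of 5 length groups as a black line. The line steps up from -0.10 to 0.05, and Kmt2a lies below it at a length of 16129 bases. Genes beyond ±0.8 are not drawn.

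With an offset for the length trend in each library, 8 members were called higher and 7 lower, against a background of 13.1% higher, 13.7% lower and 26.8% in all. With a further offset for GC content, 5 were higher and 8 lower, with 12.1% higher, 12.4% lower and 24.5% of all tested genes called. Rises outnumbered falls by 8 to 7 with the length offset, and falls outnumbered rises by 8 to 5 with both. Of the 16 called members 7 were called the same way in all 3 fits: Setd1a, Setd5, Kmt5c and Kdm1a higher, and Kmt2a, Kdm3a and Prmt2 lower. Setd1a stood at 0.30 with the length offset and at 0.24 with both offsets, with edgeR adjusted p of 3.47e-05 and 2.54e-05. Kmt2a stood at -0.20 and -0.22, with edgeR adjusted p of 3.42e-06 and 2.37e-08. Kmt2c, another very long MLL-family gene, was called with either offset, at -0.14 in both, and Kmt2d, at 0.03 without offsets, was called lower at -0.10 with both. With both offsets Nsd2 was also called higher, at 0.08, and Prmt7 and Prmt5 were called lower, at -0.14 and -0.10. Whether the trends on length and GC come from the cells or from the libraries was not tested.

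**Figure D5:**
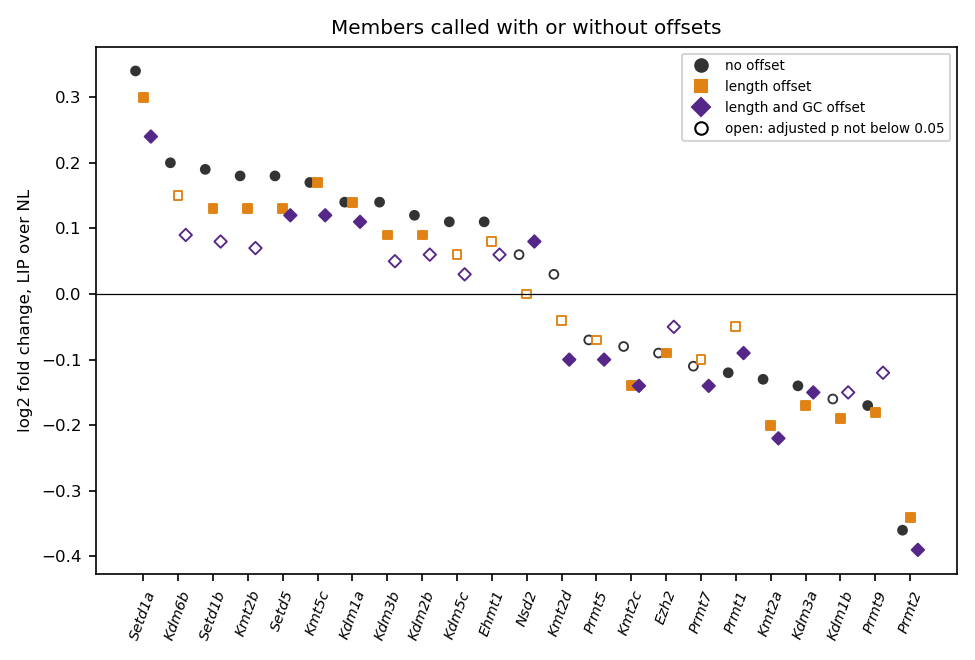
Log2 fold change of each member called in at least 1 of 3 fits, without an offset, with a length offset and with a length and GC offset. Filled symbols have an adjusted p below 0.05. Setd1a, Setd5, Kmt5c, Kdm1a, Kmt2a, Kdm3a and Prmt2 are filled in all 3 fits.

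The partner subunits of these enzymes were followed as lists, whose counts stand beside 14.1% of all tested genes called higher and 15.8% lower. Of 14 COMPASS and MLL subunits 3 rose and 5 fell (21.4% and 35.7%), with a median of -0.07. Hcfc1, a cofactor of SET1 and MLL complexes, stood at 346, 346 and 349.9 CPM in LIP and at 307, 302.5 and 299 CPM in NL and rose by 0.20 ± 0.03 (SE), with an edgeR adjusted p of 1.29e-06. Ncoa6, a subunit of the KMT2C and KMT2D complexes, rose by 0.26 ± 0.04 (SE), while Pagr1a of the same complexes fell by 0.26 ± 0.05 (SE). Dpy30, a shared core subunit, fell by 0.28 ± 0.05 (SE), but stood at -0.05 and was not called with the length and GC offset. Men1, which encodes menin, the partner of KMT2A and KMT2B, fell by 0.12 ± 0.04 (SE), a call lost without LIP replicate 1, NL replicate 1 or NL replicate 2.

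Of 12 subunits of Polycomb repressive complex 2 none rose and 3 fell, with a median of 0.01. With the length and GC offset 1 was higher and 1 lower. Eed, a core subunit, stood at 70.7, 73.3 and 72.1 CPM in LIP and at 79.9, 80.5 and 78.3 CPM in NL and fell by 0.14 ± 0.04 (SE), with an edgeR adjusted p of 0.00539. Mtf2, an accessory subunit, fell by 0.14 ± 0.04 (SE), and stood at -0.04 and was not called with the length and GC offset. The other fall was in Lcorl, which 9 of 19 alternative fits did not call. Suz12, the other core partner of EZH2, stood at 0.01.

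Of 13 LSD1 corepressor genes 4 rose and 3 fell (30.8% and 23.1%), with a median of 0.07. Of these calls, 10 of 20 alternative fits lost that of Rcor3 and 9 of 20 that of Hdac1. Gse1, a component of that complex, rose by 0.28 ± 0.04 (SE), with an edgeR adjusted p of 3.87e-09. Gfi1, the repressor of the myeloid and stem cell lineages, stood at 62.9, 65.4 and 64.7 CPM in LIP and at 55.2, 58.6 and 56.8 CPM in NL and rose by 0.18 ± 0.04 (SE). Its erythroid and megakaryocytic relative Gfi1b went the other way, at 39.8, 41.3 and 42.0 CPM in LIP and 48.6, 46.4 and 48.0 CPM in NL, and fell by 0.22 ± 0.05 (SE). The 4 PRMT5 partners had no call, with a median of -0.06.

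Writers and erasers whose symbols fall outside the pattern also went both ways. Of 14 tested methyltransferase genes 2 rose, Dot1l by 0.14 and Carm1 by 0.13, and 2 fell, Smyd2 by 0.18 and Setmar by 0.28. Setmar missed the call in 11 of 20 alternative fits. Dot1l missed it with the length offset, at 0.08. DOT1L writes H3K79 methylation, and CARM1 is the arginine methyltransferase also known as PRMT4. Of 10 tested JmjC and other demethylase genes 2 rose, Phf2 by 0.19 and Riox2 by 0.17, and 2 fell, Jmjd6 by 0.20 and the Y-linked Uty by 0.19. Without LIP replicate 3 Uty was not called. On TPM, none of the calls of Eed, Mtf2, Lcorl, Men1, Gfi1b, Smyd2, Setmar, Jmjd6 or Uty held. All of these were falls, and on TPM the median of all tested genes was 0.12 higher in LIP. There 37.0% of all tested genes were called higher and 4.35% lower. Why these falls lost their call was not tested.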

How the data were processed

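Bulk polyA-selected mRNA libraries of sorted LSK cells, 3 LIP and 3 NL, were sequenced as paired-end reads, per the labels' protocols. The authors deposited 3 values per gene and library, per the file headers: a read count, FPKM and TPM. The counts, as deposited by the authors, include fractions, so they were treated as estimated counts per gene. The submitters' processing notes list STAR, HTSeq and GRCm38 and give no roles. The tool behind the estimated counts and the strand of the libraries are not given in the sources used here. The 6 columns of group means were not used.

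Whole counts had been assumed when the test was chosen, so estimated counts were rounded. Genes were filtered with filterByExpr (12564 of 16403 kept), scaled with TMM and tested, LIP over NL, with edgeR 4.0.16 under R 4.3.3 (robust quasi-likelihood fit, group as the only term), with Benjamini-Hochberg adjustment over all tested genes and a threshold of 0.05. The fit was tested on simulated data. Standard errors are the log2 fold change over the root of the F statistic. CPM values are TMM-scaled. p-values measure the spread between pools of 3 mice. The members' counts were whole in all libraries for 42 of 50. Those of Kmt2e, Suv39h2, Kmt5b, Setd4, Kdm1a, Kdm1b, Kdm4b and Kdm7a were not, and their reads may be divided with other genes.

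Alternatives were DESeq2 1.42.0, limma-voom (limma 3.58.1), RLE, upper quartile and total count scaling, other filters, a non-robust fit, a replicate block, each library left out, whole counts only, and offsets per library from lowess trends (span 0.3) on effective length and on GC content of the longest GENCODE M21 transcript, fitted outside ribosomal protein and respiratory chain genes. Limma on log2(TPM + 0.5) was added after the data were seen. The members, gene lists and tests were chosen with earlier results of these data known. Values in every library are given for the 3 members of each role group with the smallest p (2 where under 4 were tested) and for untested members. Kmt2a, the partner genes Suz12, Men1, Rcor3, Hdac1, Cbx2 and Cbx6, and Hspa1a, Hspa1b, Hspa8 and Hsp90ab1 were added after their values were seen. Gene positions and promoter sequences are from RefSeq on GRCm38.p6, matched by gene identifier, with a promoter window for 39 of 50 members.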

Additional observations from a re-analysis of the deposited data

How the results depend on the processing

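The members' counts depended most on scaling and on the offsets. With total counts alone 2 members and 2 writers were lower and 0 erasers, and the medians were 0.054 for members, 0.047 for writers and 0.105 for erasers. In that fit 1301 of all 12564 tested genes were lower, and their median was 0.04. With the length offset the medians were -0.025, -0.033 and 0.014, and 3 erasers were higher and 2 lower. With the length and GC offset 5 members and 1 eraser were higher, 8 members and 7 writers lower, and the medians of writers and erasers were -0.038 and 0.023. On TPM 25 members, 17 writers and 8 erasers were higher and 0 were lower in each, with medians of 0.136, 0.131 and 0.165. DESeq2 gave 3 members lower, 3 erasers higher and 0 lower. Without a filter, and with at least 1 CPM in 3 libraries, 2 erasers were lower. Read letter by letter, the pattern gave a median of 0.035. Leaving out 1 library gave 8 to 11 members higher and 3 to 5 lower, 5 to 6 writers higher and 2 to 5 lower, and 2 to 6 erasers higher and 0 to 1 lower. On TPM Prmt1 stood at 0.01, and Kdm2a, Kmt2e and Nsd3 at 0.13 and Suv39h1 at 0.11 were called higher. With the length and GC offset Kmt2d was called at -0.10. The cause of these shifts was not tested.

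The replicate block changed no count of calls (11 higher, 5 lower). Together with the length offset it gave 7 members higher and 7 lower, 3 erasers higher and 2 lower, and medians of -0.025, -0.033 and 0.013. The deviations of same-numbered libraries correlated at 0.03, -0.016 and -0.113, and those of differently numbered ones at -0.112 to 0.132. The labels state no pairing, and correlations within groups of 3 libraries cannot exclude one. Kdm4d had too few counts to show a difference, and whether depth or low expression was the limit was not tested.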

Other observations

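Polycomb repressive complex 1, which acts on chromatin marked by H3K27 methylation, had more falls than rises. Of 19 tested subunits 2 rose and 5 fell, with a median log2 fold change of -0.04, against 14.1% of all tested genes higher and 15.8% lower. Rnf2, which encodes the catalytic RING1B subunit, stood at 82.0, 80.6 and 74.6 CPM in LIP and at 97.8, 93.4 and 91.9 CPM in NL, and fell by 0.26 ± 0.04 (SE), with an edgeR adjusted p of 1.67e-06. Rybp, a subunit of variant complexes, fell by 0.23 ± 0.04 (SE), and the other falls were in Pcgf1, Cbx8 and Yaf2, which were not called in 6, 5 and 6 of the 20 alternatives. On TPM, where 4.35% of all tested genes were called lower, Rybp, Cbx8 and Yaf2 were not called. The rises were in Phc1 and in Kdm2b. With the length and GC offset 0 were called higher and 5 lower, and these were partly other genes: Pcgf1 and Yaf2 were not called, and Cbx2 and Cbx6 were. Of the 9 readers and partners of H3K9 methylation, Wiz, a partner of the EHMT1 and EHMT2 dimer, stood at 94.1, 88.7 and 98.3 CPM in LIP and at 77.8, 73.7 and 77.4 CPM in NL and rose by 0.30 ± 0.04 (SE), Morc2a rose by 0.15, and Cbx3, which encodes HP1 gamma, fell by 0.18 ± 0.03 (SE), although Cbx3 stood at -0.03 and was not called with the length and GC offset.

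Among the Y-linked genes, Kdm5d stood at -0.03 and was not called, while Uty fell by 0.19, Eif2s3y by 0.23 and Ddx3y by 0.14. With the length and GC offset none of these was called.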
